A study of Mus musculus with 4 samples.

Results

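Interferon-type neutrophils are described here as barcodes of mouse gingiva that held at least 3 UMIs (unique molecular identifiers, each counting 1 captured transcript) of Rsad2, Ifit1 and Slfn4 together and that carried neutrophil transcripts. The rule asked for at least 200 genes and at most 20% mitochondrial UMIs, at least 2 UMIs of Csf3r, Cxcr2, S100a8 and S100a9 together, fewer than 3 UMIs of C1qa, C1qb and C1qc, and fewer than 5 of Krt5 and Krt14. It found 605 members among 31150 kept barcodes, and 1748 further barcodes met the neutrophil terms but had fewer than 3 UMIs of the 3 interferon genes.

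Each of the 4 groups was a single library, so differences have no replicates behind them and none was tested. They were cKO_PD (genotype label Itga9-Lyz2-cKO, periodontitis), cHet_PD (Itga9-Lyz2-cHet, periodontitis), cKO_control and cHet_control. By its title the study concerned the integrin of macrophages that Itga9 helps to form. Periodontitis (PD) was brought on with a silk suture around the maxillary second molar and Porphyromonas gingivalis, and gingiva was taken after 14 days. The labels call the mice transgenic, name Itga9 and Lyz2 in all 4 genotypes and describe the alleles no further. Lyz2 is a gene of neutrophils as well as of macrophages. The labels give neither the age nor the strain of the mice nor the number of animals behind each library. The libraries held 21368197 UMIs in cKO_PD, 36231795 in cHet_PD, 62914870 in cKO_control and 58702911 in cHet_control, with medians of 2509 to 5292 UMIs per barcode. Any 2 libraries shared 65 to 116 barcode sequences, none of them a member. All intervals below are exact 95% intervals that cover counting error only, not differences between animals, and a difference between 2 libraries cannot be told apart from a difference between the animals or preparations behind them.

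Type I interferons are cytokines that infected or stressed cells release, and they act through the receptor chains Ifnar1 and Ifnar2 to activate transcription factors, which switch on a shared set of antiviral genes. Neutrophils are short-lived granulocytes that leave the bone marrow after filling their granules in a fixed order, and a subset of them in blood and inflamed tissue is known to carry this interferon-induced program. Of the rule genes, Rsad2 encodes viperin, an antiviral enzyme, and Ifit1 encodes a protein that binds foreign RNA. Slfn4 is a Schlafen family gene of mouse myeloid cells, induced by interferon and by bacterial products.

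The 4 marker genes lie in GRCm38 (GENCODE M21) on chr12:26442746-26456452 (Rsad2, minus strand), chr19:34640871-34650009 (Ifit1, plus strand), chr11:83175186-83190216 (Slfn4, plus strand) and chr11:82951349-82964840 (Slfn5, plus strand). The interferon-stimulated response element is a DNA site through which interferon-induced genes are switched on, and its core, GAAA followed by 2 bases of any kind and GAAA again, was searched on both strands in the 250 bases before each gene's start (RefSeq, GRCm38.p6). It was found in 936 of 27025 genes (3.46%), in 3 of the 4 marker genes (Rsad2, Ifit1 and Slfn5) and in 24 of 51 matched genes (47.1%) of a panel of interferon-induced genes outside the rule. For comparison, it was found in 1 of 10 secondary granule genes and in 0 of 14 matched tertiary granule genes. The following 100-base stretches are printed on the strand of the gene, with the element in capitals. They cover the rule genes and 3 other interferon-induced genes chosen because they hold it (Ifit3, Isg15 and Trim30a). Capitals that begin with TTTC (Rsad2, Ifit1, Ifit3 and Trim30a) mark the element on the opposite strand. Herc6 and Ifi47, named in the results, and another annotated start of Trim30a held none. They lie at chr12:26456493-26456592 (Rsad2), chr19:34640765-34640864 (Ifit1), chr11:83175086-83175185 (Slfn4), chr19:34583353-34583452 (Ifit3), chr4:156200819-156200918 (Isg15, 3 overlapping matches) and chr7:104465194-104465293 (Trim30a). Rsad2, Isg15 and Trim30a lie on the minus strand and the others on the plus strand.
Rsad2: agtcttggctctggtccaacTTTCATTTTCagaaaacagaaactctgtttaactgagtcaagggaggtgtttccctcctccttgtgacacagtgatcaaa
Ifit1: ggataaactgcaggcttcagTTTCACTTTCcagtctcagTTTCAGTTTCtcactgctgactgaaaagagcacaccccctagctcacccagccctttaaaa
Slfn4: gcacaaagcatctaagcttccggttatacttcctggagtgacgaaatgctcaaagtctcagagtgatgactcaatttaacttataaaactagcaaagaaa
Ifit3: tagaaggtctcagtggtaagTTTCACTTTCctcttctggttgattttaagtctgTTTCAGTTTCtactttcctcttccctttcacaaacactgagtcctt
Isg15: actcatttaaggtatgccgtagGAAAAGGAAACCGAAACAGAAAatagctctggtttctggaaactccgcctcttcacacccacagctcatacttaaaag
Trim30a: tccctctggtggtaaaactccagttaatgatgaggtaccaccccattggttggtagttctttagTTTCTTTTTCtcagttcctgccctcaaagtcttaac
The Slfn4 window held no match, which says only that these letters are not in it. A match describes the letters and was not tested as a site.

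The barcodes of the rule were not all neutrophils by their wider transcripts. S100a8 and S100a9 are also made by keratinocytes, and S100a8 was seen in 27.2% of the epithelial-led barcodes of cKO_PD and in 33.4% of those of cHet_PD that lay outside the neutrophil terms. A barcode was therefore called neutrophil-led where a list of 16 neutrophil genes had the most UMIs of 9 cell-class lists and at least 1 UMI of Csf3r or Cxcr2 was present. Of the 605 members, 429 were neutrophil-led: 87 of 131 in cKO_PD, 316 of 442 in cHet_PD, 6 of 9 in cKO_control and 20 of 23 in cHet_control. The other 176 were left out of the values below. Among them 5 cKO_PD and 51 cHet_PD members were led by epithelial genes. The 429 are called interferon-rule neutrophils here, and neutrophil-led barcodes with fewer than 3 UMIs of the interferon genes are called other neutrophils.

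The interferon-rule neutrophils carried UMIs of all 16 neutrophil markers in both PD libraries, among them Csf3r (the G-CSF receptor), Cxcr2 (a chemokine receptor), Mmp9 and Ly6g. This list drew the barcodes, so its presence describes the selection. The members left out as not neutrophil-led also carried all 16 in both PD libraries. C1qa, C1qb and C1qc, which the rule limits, were at 0 UMIs in both PD libraries. Of 14 T and NK cell markers 13 were at 0 in cKO_PD and 8 in cHet_PD, and of 12 dendritic cell markers 10 were at 0 in cKO_PD and 9 in cHet_PD. Other lists were not absent. Of 16 epithelial markers 14 had UMIs in cKO_PD and 16 in cHet_PD. Of 10 fibroblast markers 5 had UMIs in cKO_PD and 10 in cHet_PD, and of 10 endothelial markers 7 and 9. Epithelial markers were present in these barcodes, at a summed 1969 CPM (counts per 1e6 UMIs of the group) in interferon-rule neutrophils of cKO_PD against 2201 CPM in its other neutrophils, and at 4546 CPM in cHet_PD against 4522 CPM. Mononuclear phagocyte markers summed to 1835 CPM in interferon-rule against 1501 CPM in other neutrophils of cKO_PD, and to 599 CPM against 555 CPM in cHet_PD. Their part in the results was not tested. Doublets were not removed.

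Interferon-rule neutrophils made up 17.9% of neutrophil-led barcodes in cKO_PD (87 of 485, 14.6 to 21.6%) and 51.0% in cHet_PD (316 of 620, 47.0 to 55.0%). In the controls they were 6 of 15 in cKO_control (40%, 16.3 to 67.7%) and 20 of 29 in cHet_control (69.0%, 49.2 to 84.7%), so gene values of the controls rest on few barcodes. The rule asks for 3 UMIs at any depth, and members had medians of 4944.5 UMIs in cKO_control and 5652 in cHet_control. Those of cKO_PD had 1670 and those of cHet_PD 1049. Thinned to 1000 UMIs a barcode, members were 28 of 254 in cKO_PD, 136 of 267 in cHet_PD, 1 of 17 in cKO_control and 7 of 19 in cHet_control. The share was lower in cKO_PD than in cHet_PD under each of the 11 ways of drawing the members that were tried, with a ratio of shares of 0.352 as drawn. Over all barcodes that met the neutrophil terms, without asking which list led, the shares were 12.2% in cKO_PD, 37.3% in cHet_PD, 29.0% in cKO_control and 33.8% in cHet_control. Since membership rests on 3 UMIs, fewer such cells and less of these transcripts per cell cannot be told apart in a share.

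**Figure D1:**
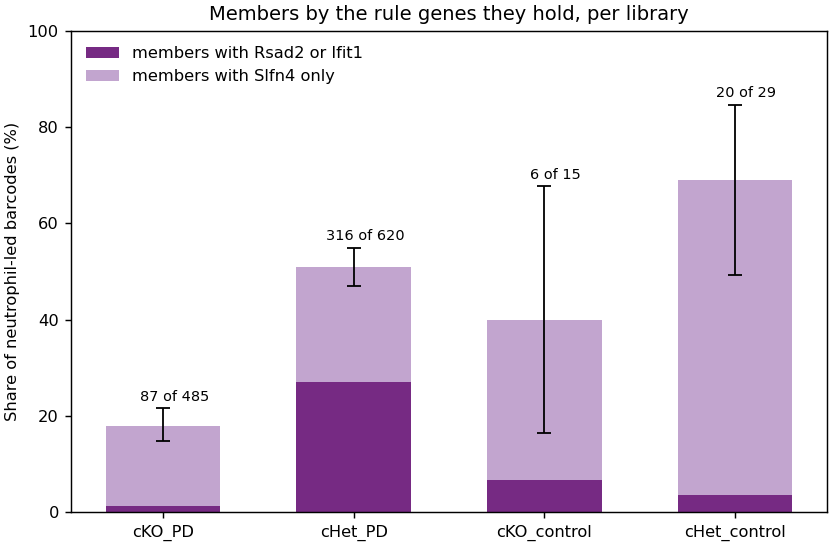
Share of neutrophil-led barcodes that were members (%), by library, split into members with Rsad2 or Ifit1 UMIs (dark) and with Slfn4 as their only rule gene (light), with exact 95% intervals of the whole share. The dark part is thin in cKO_PD and makes up 167 of 316 members in cHet_PD.

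The label held for cHet_PD in part and for the other libraries hardly at all. In cKO_PD 81 of 87 interferon-rule neutrophils (93.1%) passed on Slfn4 alone, 6 held Rsad2 and 0 held Ifit1. In cHet_PD 167 of 316 (52.8%) held Rsad2 or Ifit1: 70 held both, 87 held Rsad2 and no Ifit1, and 10 held Ifit1 and no Rsad2. The other 149 (47.2%) passed on Slfn4 alone. In the controls 5 of 6 interferon-rule neutrophils of cKO_control and 19 of 20 of cHet_control held Slfn4 alone. With Slfn4 left out and 3 UMIs of Rsad2 and Ifit1 required, 0 members of cKO_PD and 87 of cHet_PD would have passed.

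Members just inside the threshold, with 3 UMIs, were 60 of 131 in cKO_PD and 67 of 442 in cHet_PD, and barcodes just outside it, with 2 UMIs, were 88 of 939 in cKO_PD and 92 of 742 in cHet_PD. Interferon-rule neutrophils held a median of 4 rule UMIs in cKO_PD (3 to 16) and of 7 in cHet_PD (3 to 85). In cHet_PD the median was 12 in barcodes with Rsad2 or Ifit1 and 5 in barcodes with Slfn4 alone. Most members of cKO_PD thus lay close to the threshold, and those of cHet_PD ranged far above it.

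The stage of the barcodes differed between the libraries too. A barcode was called immature where the secondary granule genes Ltf, Ngp and Camp outweighed 6 late genes, and mature otherwise unless primary granule genes were present. Of the interferon-rule neutrophils 70 of 87 were immature and 16 mature in cKO_PD, while 17 of 316 were immature and 299 mature in cHet_PD. The same held for all neutrophil-led barcodes, of which 155 of 485 (32.0%) were mature in cKO_PD and 601 of 620 (96.9%) in cHet_PD. Among mature barcodes alone, members were 16 of 155 in cKO_PD (10.3%, 6.02 to 16.2%) and 299 of 601 in cHet_PD (49.8%, 45.7 to 53.8%). Rsad2 or Ifit1 was seen in 10 of 155 mature barcodes of cKO_PD (6.45%, 3.14 to 11.5%) and in 178 of 601 of cHet_PD (29.6%, 26.0 to 33.4%). Barcodes led by T or NK cell genes, a type with little of this transcript, had Rsad2 in 5.26% of 57 cKO_PD barcodes (median 1064 UMIs) and 1.45% of 138 cHet_PD barcodes (median 1677 UMIs), where mature neutrophil-led barcodes had it in 5.16% in cKO_PD and 28.0% in cHet_PD. Epithelial-led barcodes, which were deeper, had it in 1.02% in cKO_PD (median 2744 UMIs) and 4.40% in cHet_PD (median 3778 UMIs). The cKO_PD share in mature barcodes was thus close to that in T or NK-led barcodes, which were few, and higher than in epithelial-led ones. The cHet_PD share was above both. Grouped by Slfn4 count, the mature barcodes had median depths of 883 to 1082 UMIs in cKO_PD and 861 to 1072 UMIs in cHet_PD.

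Rsad2 was summed over interferon-rule neutrophils at 39.0 CPM in cKO_PD (7 UMIs), 2664 CPM in cHet_PD (992 UMIs, in 49.7% of barcodes), 32.6 CPM in cKO_control (1 UMI) and 9.20 CPM in cHet_control (1 UMI). In other neutrophils it was at 5.85 CPM in cKO_PD, 50.4 CPM in cHet_PD and 0 UMIs in cKO_control and cHet_control. The cKO_PD level was 68.2-fold lower (33.0 to 170) than that of cHet_PD, where the barcode with the most Rsad2 held 57 of the 992 UMIs.

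Ifit1 had 0 UMIs in interferon-rule neutrophils of cKO_PD, 894 CPM in cHet_PD (333 UMIs, in 25.3% of barcodes) and 0 UMIs in both controls. In other neutrophils it was at 2.93 CPM in cKO_PD, 3.36 CPM in cHet_PD, 0 in cKO_control and 16.8 CPM in cHet_control. It was at least 53.4-fold lower in cKO_PD than in cHet_PD, taking 3 counts over the group as the floor. Ifit1 was thus at 2 or fewer UMIs in each of these groups except the interferon-rule neutrophils of cHet_PD.

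Slfn4 was present in members of every library: 2187 CPM in cKO_PD, 7438 CPM in cHet_PD, 1465 CPM in cKO_control and 2125 CPM in cHet_control. Other neutrophils had 310.2 CPM in cKO_PD, 713 CPM in cHet_PD, 257 CPM in cKO_control and 134 CPM in cHet_control. Slfn4 in interferon-rule neutrophils was 3.40-fold (3.06 to 3.79) lower in cKO_PD than in cHet_PD. These 3 genes drew the group, so their levels describe the rule.

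Slfn5, a Schlafen gene that was given as a marker but is no part of the rule, was seen in interferon-rule neutrophils at 5.58 CPM in cKO_PD (1 UMI), 945 CPM in cHet_PD (352 UMIs), 0 in cKO_control and 55.2 CPM in cHet_control (6 UMIs). Other neutrophils had 11.7 CPM in cKO_PD, 80.7 CPM in cHet_PD, 36.7 CPM in cKO_control and 33.5 CPM in cHet_control. Within cHet_PD it was present in 81 of 167 barcodes with Rsad2 or Ifit1 (48.5%), in 21 of 149 with Slfn4 alone (14.1%) and in 17 of 304 other neutrophils (5.59%). In cKO_PD it was in 1 of 81 barcodes with Slfn4 alone and 4 of 398 other neutrophils. In cHet_PD it was thus seen most often in barcodes with Rsad2 or Ifit1.

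**Figure D2:**
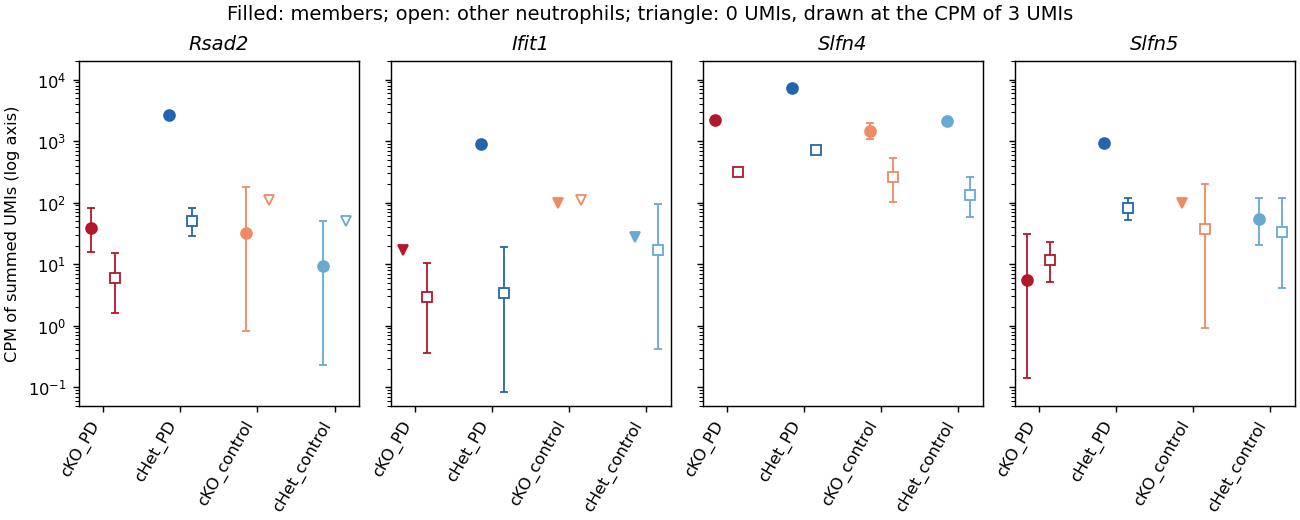
CPM of summed UMIs (log axis) of the 3 rule genes and Slfn5 in members (filled) and other neutrophils (open) of each library, with exact 95% intervals. Triangles mark 0 UMIs and are drawn at the CPM of 3 UMIs; Rsad2, Ifit1 and Slfn5 stand at 2664, 894 and 945 CPM in cHet_PD members.

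The neutrophil terms of the rule also differed between libraries. Csf3r was at 435 CPM in interferon-rule neutrophils of cKO_PD, 1837 CPM in cHet_PD, 619 CPM in cKO_control and 386 CPM in cHet_control, and Cxcr2 at 630.3 CPM in cKO_PD, 1037 CPM in cHet_PD, 2116 CPM in cKO_control and 368 CPM in cHet_control. S100a8, which encodes a subunit of calprotectin, was at 43649 CPM in cKO_PD and 17782 CPM in cHet_PD, and S100a9, the partner subunit, at 31499 CPM in cKO_PD and 14015 CPM in cHet_PD. Itga9, the gene the genotype labels name, had 0 UMIs in interferon-rule neutrophils of cKO_PD, cHet_PD and cKO_control and 1 in cHet_control, so its loss could not be checked in these cells. Leaving S100a8 and S100a9 out of the totals moved the interferon ratios by little, as given with the other settings at the close.

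Rsad2 and Ifit1 went with the number of Slfn4 UMIs in cHet_PD. In cKO_PD Rsad2 or Ifit1 was seen in 1.68% of neutrophil-led barcodes with no Slfn4 (4 of 238), 1.86% with 1 to 2 UMIs (3 of 161), 6.17% with 3 to 9 (5 of 81) and 0 of 5 with 10 or more. In cHet_PD the shares were 7.84% (12 of 153), 13.8% (24 of 174), 33.8% (67 of 198) and 81.1% (77 of 95). Median depth over these bins was 1212 to 2266 UMIs in cKO_PD and 862 to 1131 UMIs in cHet_PD. The highest bin of cKO_PD is too small to set a share.

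The first comparison asked which genes went with the rule inside a library, with a gene considered at 20 UMIs and 50 CPM in either group. Genes that differed at least 2-fold with 10 CPM added, with an interval of the ratio that left out 1, were called by size, and list members were counted from 1.5-fold. The rule drew these groups on 3 genes of this program, so what follows is a description. In cKO_PD 27 of 3244 genes (0.832%) were called higher in interferon-rule neutrophils and 80 (2.47%) lower. In cHet_PD 122 of 2707 (4.51%) were called higher and 35 (1.29%) lower. At 1.5-fold the background was 6.54% higher and 10.4% lower in cKO_PD, and 10.2% and 8.83% in cHet_PD.

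Genes called the same way in both PD libraries were few: 4 higher and 3 lower of 2331 considered in both, and 0 in opposite directions. Seen in 10% of barcodes, the shared higher genes were Slfn4 itself and Trim30a, an interferon-induced member of the tripartite motif family that restrains Toll-like receptor signalling in mouse. Trim30a had 139 CPM in interferon-rule against 46.8 CPM in other neutrophils of cKO_PD (log2 ratio 1.39, 25 and 32 UMIs), and 908 CPM against 326 CPM in cHet_PD (1.45, 338 and 97 UMIs). In the controls it was at 326 CPM against 513 CPM in cKO_control and 175 CPM against 83.8 CPM in cHet_control, with 19 or fewer UMIs a group. Elane and Mpo, enzymes of the primary granules, were among the shared lower genes, of which 0 were seen in 10% of barcodes. In cHet_PD all 23 Mpo and 20 Elane UMIs of other neutrophils lay in 0.329% of 304 barcodes, which is 1 barcode. In cKO_PD the 148 Mpo UMIs of other neutrophils lay in 2.01% of 398 barcodes, against 0 UMIs in interferon-rule neutrophils.

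The antiviral effectors, products that block viral entry, translation or genome copying, were mostly higher in interferon-rule neutrophils of cHet_PD: 17 of 23 measured genes higher and 0 lower, with a median log2 ratio of 1.45 against -0.04 over all genes considered. Ifit3, a partner of Ifit1 in RNA binding, had 247 CPM in interferon-rule neutrophils (92 UMIs) and 0 UMIs in other neutrophils, at least 24.5-fold higher. Ifit3b had 134 CPM against 3.36 CPM, and the oligoadenylate synthetase-like gene Oasl1 397 CPM against 70.6 CPM (log2 ratio 2.34). Ifitm3, which holds viruses in endosomes, had 830 CPM against 309 CPM (1.40), while Ifitm1 had 714 CPM against 911 CPM (-0.35). The list was thus higher as a rule with the small transmembrane Ifitm genes split.

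The ubiquitin, ISG15 and ADP-ribosylation genes were higher in 9 of 11 and lower in 0 (median 1.64). Isg15, a ubiquitin-like modifier, had 134 CPM in interferon-rule against 16.8 CPM in other neutrophils of cHet_PD (log2 ratio 2.43). Herc6, its ligase in mouse, had 126 CPM against 13.4 CPM (2.54), and Rnf213, a large ubiquitin ligase, 320 CPM against 67.2 CPM (2.09). All 5 measured guanylate-binding and immunity-related GTPases, which attack the vacuoles of intracellular pathogens, were higher (median 1.64), with Gbp2 at 427 CPM against 118 CPM (1.78) and Irgm1 at 242 CPM against 70.6 CPM (1.64). Ifi47, another GTPase, counted here with the antiviral effectors, had 177 CPM against 16.8 CPM (2.80). These lists are no independent support of each other, since the same barcodes carry them.

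Sensors of foreign nucleic acid were higher in 5 of 7 (median 1.49), led by Ifi204, a DNA sensor of the p200 family, with 698 CPM in interferon-rule against 97.5 CPM in other neutrophils (2.72), and by Ddx58, the RNA sensor RIG-I, with 328 CPM against 84.1 CPM (1.84). Tlr13, a receptor for bacterial ribosomal RNA in mouse, had 301 CPM against 279 CPM (0.10). Of the Schlafen genes outside the rule 3 of 4 were higher, with Slfn1 at 757 CPM against 336 CPM (1.15) and Slfn2 at 427 CPM against 289 CPM (0.55). Reads of the Schlafen, Ifit3, Oas, Trim30, Gbp and Ifi200 families may be split between near-identical copies, and values of single members are uncertain to that extent.

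Receptors and signalling genes moved less than their targets. Of 14 measured, 4 were higher and 0 lower (median 0.34), with Irf7, the factor that amplifies interferon production, at 91.3 CPM in interferon-rule against 16.8 CPM in other neutrophils (log2 ratio 1.92, 34 and 5 UMIs). Ifnar1 had 91.3 CPM against 134 CPM (-0.51), an interval that included no change, and Jak2, a kinase, 897 CPM against 787 CPM (0.19). No gene of the interferons themselves was measured among 20 in the files, and Ifnb1 and Ifng had 0 UMIs in neutrophils. Cxcl10, the chemokine that draws T cells, had 328 CPM against 53.8 CPM (2.40), with 122 and 16 UMIs.

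MHC class I presentation genes were higher in 5 of 9 (median 0.67), with Nlrc5, their transactivator, at 107 CPM in interferon-rule against 30.3 CPM in other neutrophils (1.54) and B2m, the light chain, at 2618 CPM against 1916 CPM (0.45). Genes of aged and tissue neutrophils were higher in 5 of 19 (median 0.27), with the chemokine Ccl4 at 814 CPM against 289 CPM (1.46), Cxcl2 at 8263 CPM against 7336 CPM (0.17) and Cxcr4 at 2516 CPM against 3194 CPM (-0.34). Cell cycle genes had 4 measured and 0 past 1.5-fold. Microbial recognition genes had 0 of 15 past it either way and glycolysis genes 0 of 15. A smaller part of each of these lists was past 1.5-fold than of the antiviral effectors.

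Secondary granule genes were the exception in cHet_PD, with 7 of 9 higher, 1 lower and a median of 1.27. Ngp, a granule protein of the myelocyte stage, had 5172 CPM in interferon-rule against 1311 CPM in other neutrophils, but 83.9% of its UMIs in interferon-rule neutrophils came from 10 barcodes. Among mature barcodes alone 108 of 2461 genes (4.39%) were called higher and 34 (1.38%) lower. There 2 of 6 secondary granule genes were higher and 1 lower (median 0.21), and 16 of 23 antiviral effectors were higher and 0 lower (median 1.55), where 10.3% of all genes were higher and 9.06% lower at 1.5-fold.

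In cKO_PD the same lists were sparse. Of the antiviral effectors 10 were measured, 3 higher and 1 lower (median 0.31 against -0.01 over all genes), and of the GTPases 0 of 16 in the files were measured. Slfn1 had 229 CPM in interferon-rule against 110 CPM in other neutrophils, and Slfn2 273 CPM against 205 CPM. Primary granule genes were lower in 3 of 4 (median -1.20), but few barcodes carried them: Mpo had 0 UMIs in immature members and 1 UMI in immature others, and Elane 1 UMI in immature members and 5 UMIs in immature others. Cell cycle genes were lower in 4 of 14 (median -0.20), and dissociation and immediate early genes higher in 1 and lower in 7 of 25 (median -0.39). Secondary granule genes had 0 of 9 past 1.5-fold either way. Among immature barcodes of cKO_PD, 70 members against 252 others, 21 of 3123 genes (0.672%) were called higher and 152 (4.87%) lower. Dissociation and immediate early genes were higher in 2 and lower in 9 of 23 there (median -0.48), cell cycle genes lower in 6 of 14 (median -0.51) and antiviral effectors higher in 1 of 7, where 6.79% of all genes were higher and 16.9% lower at 1.5-fold. Some high values of cKO_PD were those of 1 barcode: 173 of 177 UMIs of Rgs5, a pericyte gene, 60 of 79 of Il1a and 22 of 25 of Cxcl10.

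**Figure D3:**
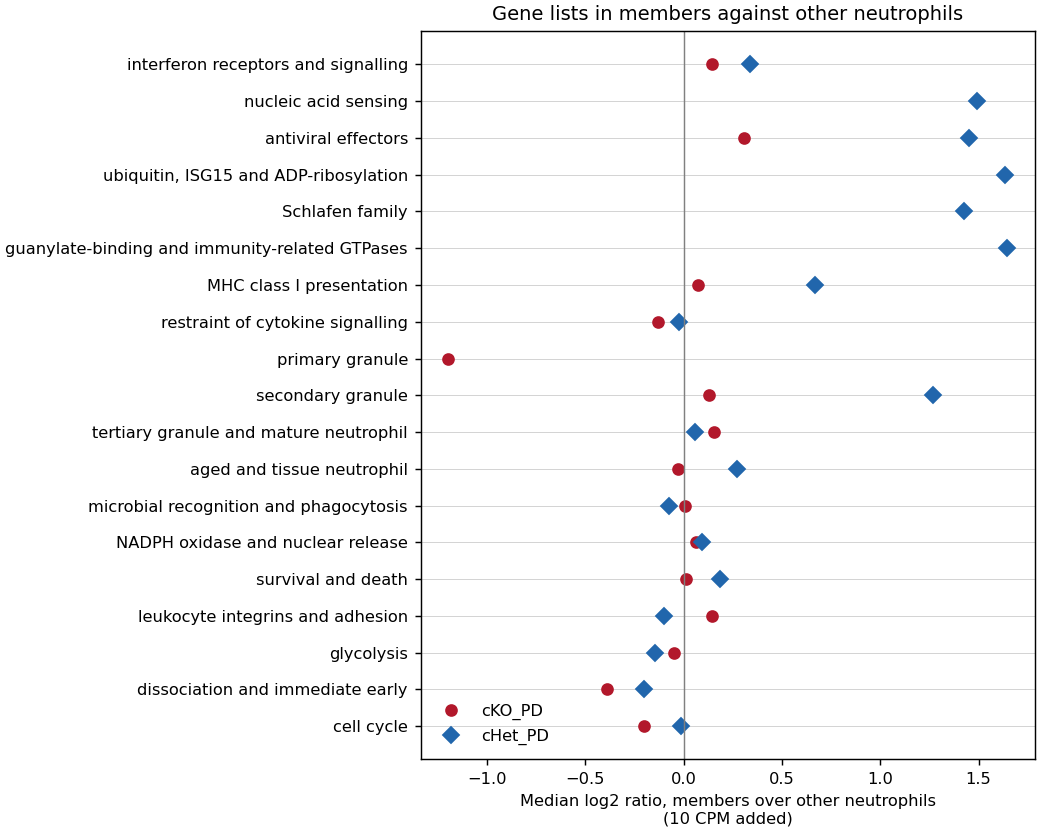
Median log2 ratio (10 CPM added) of each gene list in members over other neutrophils, for cKO_PD (red circles) and cHet_PD (blue diamonds), where at least 3 genes were measured. The interferon-induced lists lie between 1.42 and 1.64 in cHet_PD, against 0.31 for the antiviral effectors of cKO_PD.

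The panel of 66 interferon-induced genes outside the rule was summed over all its genes, whether or not each had enough UMIs to be considered. It summed to 4998 CPM in interferon-rule against 3770 CPM in other neutrophils of cKO_PD (ratio 1.33, 1.23 to 1.43), and to 11794 CPM against 5786 CPM in cHet_PD (2.04, 1.93 to 2.16). In the controls it was 8107 CPM against 8727 CPM in cKO_control and 5610 CPM against 3974 CPM in cHet_control, over 6 members and 9 others of cKO_control and 20 members and 9 others of cHet_control. Ifitm1, Ifitm2, Ifitm3 and Ifitm6 made up much of it: in cKO_PD they had 3481 CPM in interferon-rule against 2627 CPM in other neutrophils, and in cHet_PD 2905 CPM against 2367 CPM.

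Without these 4 genes, a choice made after the values were seen, the panel stood at 1517 CPM in interferon-rule against 1143 CPM in other neutrophils of cKO_PD (ratio 1.33, 1.15 to 1.53), and at 8888 CPM against 3419 CPM in cHet_PD (2.60, 2.42 to 2.79). A barcode held a median of 2 of these 62 genes in interferon-rule against 1 in other neutrophils of cKO_PD, at median depths of 1670 and 1297 UMIs. In cHet_PD the medians were 5 and 2 genes, at 1049 and 916 UMIs, with 26 in the highest barcode. The program was thus spread over many genes per barcode in cHet_PD at lower depth than in cKO_PD.

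Within cHet_PD the barcodes with Rsad2 or Ifit1 and those with Slfn4 alone were then set against each other, a comparison added after the values were seen. Of 1705 genes 108 (6.33%) were called higher with Rsad2 or Ifit1 and 91 (5.34%) lower. Of the antiviral effectors 17 of 23 were higher and 1 lower (median 1.43), and all 6 sensors and all 4 GTPases measured were higher (medians 1.77 and 2.03), against 13.1% of all genes at 1.5-fold. Cxcl10 had 576 CPM with Rsad2 or Ifit1 against 56.2 CPM with Slfn4 alone, and Lipg, the gene of endothelial lipase, 185 CPM against 11.2 CPM. Stat2 had 139 CPM against 16.9 CPM and Cmpk2, a mitochondrial nucleotide kinase encoded beside Rsad2, 149 CPM against 11.2 CPM. The barcodes that held a rule gene other than Slfn4 thus held more of the wider program as well.

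The same barcodes carried more of the tissue neutrophil list, with 11 of 19 genes higher and 0 lower (median 0.71). Ccl4 had 1121 CPM with Rsad2 or Ifit1 against 478 CPM with Slfn4 alone, Tnf 643 CPM against 253 CPM, and Cd274, a gene of immune checkpoint signalling, 1029 CPM against 466 CPM. Secondary granule genes were lower in 7 of 8 and higher in 1 (median -2.46), with Ngp at 1322 CPM against 9377 CPM, and 2 of the 17 immature members held Rsad2 or Ifit1. The median depth was 1061 UMIs with Rsad2 or Ifit1 and 1040 UMIs with Slfn4 alone.

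Slfn4 alone still went with some of the program among mature barcodes. Of 2098 genes 34 (1.62%) were called higher and 61 (2.91%) lower in 134 mature barcodes with Slfn4 alone against 302 mature other neutrophils of cHet_PD. Of the antiviral effectors 7 of 15 were higher and 0 lower (median 0.43), against 6.2% of all genes at 1.5-fold. Ifi204 had 359 CPM with Slfn4 alone against 101 CPM in other neutrophils, Slfn5 244 CPM against 83.8 CPM, and Rtp4, an antiviral chaperone, 359 CPM against 140 CPM. The panel without the Ifitm genes stood at 5285 CPM with Slfn4 alone against 3508 CPM in other neutrophils (ratio 1.51, 1.37 to 1.66).

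The second comparison, cKO_PD against cHet_PD, asked how interferon-rule neutrophils differed with genotype in periodontitis. Of 2675 genes 331 (12.4%) were called higher in cKO_PD and 536 (20%) lower, with 24.2% and 31% past 1.5-fold. Scaling by TMM (trimmed mean of M values) in place of totals shifted log2 ratios by -0.37 before 10 CPM were added, and gave 169 higher and 766 lower. The balance of the 2 directions thus depends on the scaling, and values here are scaled by totals. The rule fixed a floor in both groups, and 70 of 87 barcodes were immature in cKO_PD against 17 of 316 in cHet_PD. The 2 libraries thus differ in stage as well as in genotype, and the parts of stage and genotype in these counts cannot be told apart.

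The 8 genes with the lowest ratio in cKO_PD were Ifit1, Slfn5, Rsad2, Ifi204, Oasl1, Irgm1, Trim30d and Cd274, which encodes the checkpoint ligand PD-L1 and is induced by interferons among other cytokines. Ifi204 had 11.2 CPM in cKO_PD against 698 CPM in cHet_PD (log2 ratio -5.06), Oasl1 5.58 CPM against 397 CPM (-4.71) and Trim30d 11.2 CPM against 373 CPM (-4.18). Irgm1 had 0 UMIs against 90, at least 14.4-fold lower, and Cd274 27.9 CPM against 760 CPM (-4.34). Isg15 had 0 UMIs in cKO_PD against 50 in cHet_PD, in groups of 179273 and 372398 UMIs.

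Of the antiviral effectors 20 of 23 were lower in cKO_PD and 1 higher (median -3.13, or -2.61 with genes at 0 UMIs set at their bound, against -0.05 over all genes). The gene that was higher was Ifitm6, with 2226 CPM in cKO_PD against 537 CPM in cHet_PD (2.03). Of the ubiquitin and ISG15 genes 10 of 11 were lower (median -2.67), of the GTPases 5 of 5 (-2.31), of the sensors 6 of 7 (-2.36) and of the Schlafen genes outside the rule 4 of 4 (-2.21). In cKO_PD the 16 GTPases in the files summed to 17 UMIs and the 16 ubiquitin and ISG15 genes to 51. No GTPase could thus be considered except through cHet_PD, which also held more UMIs (372398 against 179273). The 5 of 5 was therefore close to fixed by the filter. Most of the antiviral effectors and of the ubiquitin and ISG15 genes could also be considered only through cHet_PD. The same held for some of the sensors (86 UMIs over 20 genes in cKO_PD) and Schlafen genes (95 UMIs over 7 genes). Counts and medians of these lists are thus set in part by the filter. MHC class I genes were lower in 8 of 9 (-1.52), with B2m at 1261 CPM against 2618 CPM. Gbp2 had 27.9 CPM in cKO_PD against 427 CPM in cHet_PD.

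Among genes of receptors and signalling 8 of 14 were lower in cKO_PD and 1 higher (median -1.11): Irf7 had 5.58 CPM against 91.3 CPM, Jak2 307 CPM against 897 CPM, and Stat3 597 CPM against 373 CPM. Tissue neutrophil genes were lower in 16 of 19 (-2.04), with Cxcl2 at 1852 CPM against 8263 CPM and Il1b at 1077 CPM against 4452 CPM. Il1rn, which encodes the interleukin-1 receptor antagonist, had 1947 CPM against 8115 CPM. Dissociation and immediate early genes were lower in 16 of 26 and higher in 1 (-1.14).

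Among the lists that stood higher in cKO_PD were those of granule filling and division. Secondary granule genes were higher in 8 of 9 (median 2.61), with Ngp at 32593 CPM in cKO_PD against 5172 CPM in cHet_PD, Ltf (lactoferrin) 5472 CPM against 674 CPM, Camp (cathelicidin) 3068 CPM against 371 CPM (3.02) and Chil3, a chitinase-like protein, 4184 CPM against 508 CPM (3.02). Cell cycle genes were higher in 7 of 9 (1.96), with Mki67 at 485 CPM against 34.9 CPM (3.46) and Top2a at 396 CPM against 32.2 CPM (3.27). Of the Mki67 UMIs in interferon-rule neutrophils of cKO_PD, 92.0% lay in 10 barcodes, and the log2 ratio of Top2a was -2.24 without barcodes holding other cells' markers. Lta4h, which makes leukotriene B4, Plscr1, a phospholipid scramblase, and Cemip2, a hyaluronidase, were also among the 8 largest of the called genes seen in 10% of barcodes in cKO_PD. Lta4h had 346 CPM in cKO_PD against 34.9 CPM in cHet_PD (2.99), but its log2 ratio was -0.38 over mature members alone. Plscr1 had 396 CPM against 45.7 CPM and Cemip2 446 CPM against 53.7 CPM. Cybb, the NADPH oxidase subunit, had 4267 CPM against 730 CPM. Plscr1 is itself interferon-inducible in many cells and was higher here in cKO_PD.

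Members of the same stage were then compared. Over the 70 immature members of cKO_PD against the 17 of cHet_PD, 65 of 1289 genes (5.04%) were called higher and 19 (1.47%) lower, and secondary granule genes had a median of 0.17. There 5 antiviral effectors were measured, 1 lower (Ifitm3) and 0 higher, where 25.3% of all genes were higher and 8.53% lower at 1.5-fold. Of 4 MHC class I presentation genes 3 were lower and 1 higher (median -0.86). H2-K1, a class I heavy chain, had 428 CPM in cKO_PD against 1047 CPM in cHet_PD (-1.27), H2-D1 1190.0 CPM against 2276 CPM (-0.93) and B2m 1272 CPM against 2208 CPM (-0.79). Over mature members, 16 barcodes of cKO_PD against 299 of cHet_PD, 109 of 2284 genes (4.77%) were called higher and 112 (4.9%) lower. Rsad2 had 319.6 CPM (6 UMIs) against 3017 CPM, 9.44-fold lower (4.32 to 25.8). Antiviral effectors were lower in 19 of 23 and higher in 2 (median -1.93, or -1.31 with genes at 0 UMIs set at their bound, against -0.22 over all genes, with 36.6% and 22.5% of all genes past 1.5-fold). The cKO_PD side held 18773 UMIs in all, so few genes could be considered except through cHet_PD. Of 5 secondary granule genes 4 were higher and 1 lower (median 1.67). The 66-gene panel stood at 5327 CPM against 12458 CPM, 2.34-fold lower (1.92 to 2.88).

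All mature neutrophil-led barcodes, 155 in cKO_PD and 601 in cHet_PD, gave a comparison that did not use the interferon threshold. Of 2875 genes 149 (5.18%) were called higher in cKO_PD and 279 (9.7%) lower, with 16% and 23.3% past 1.5-fold. Antiviral effectors were lower in 18 of 22 and higher in 1 (median -2.04 against -0.05 over all genes), ubiquitin and ISG15 genes lower in 9 of 9 (-2.34), GTPases in 4 of 4 (-2.42), Schlafen genes outside the rule in 4 of 4 (-3.33) and sensors in 4 of 6 with 1 higher (-2.55). These counts use neither the threshold nor the immature barcodes, but they still depend on the filter. In mature barcodes of cKO_PD the 16 GTPases in the files summed to 19 UMIs. A GTPase could thus be considered only through cHet_PD, and a count of all lower was close to fixed by the filter. Most of the ubiquitin and ISG15 genes (40 UMIs over 16 genes) and of the Schlafen genes (45 UMIs over 7 genes) were in the same position. So were some of the sensors (89 UMIs over 20 genes) and of the antiviral effectors (598 UMIs over 34 genes, the Ifitm genes among them).

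Rsad2 over mature barcodes had 58.8 CPM in cKO_PD (9 UMIs) against 1636 CPM in cHet_PD (1006 UMIs), 27.8-fold lower (14.6 to 61.0). Ifit1 had 13.1 CPM against 541 CPM, 41.4-fold lower (11.4 to 344), Slfn4 810.2 CPM against 4599 CPM, 5.68-fold lower (4.74 to 6.85), and Slfn5 45.7 CPM against 611 CPM, 13.4-fold lower (6.42 to 33.5). The 66-gene panel had 4293 CPM against 9418 CPM, 2.19-fold lower (2.02 to 2.38), and without the Ifitm genes 1927 CPM against 6867 CPM, 3.56-fold lower (3.17 to 4.02). Oasl2 had 45.7 CPM against 424 CPM, Isg20, an RNA exonuclease, 45.7 CPM against 301 CPM, and Ifih1, the RNA sensor MDA5, 6.53 CPM against 115 CPM. Ifitm2 had 1032 CPM against 925 CPM and Ifitm6 483 CPM against 190 CPM.

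Of the receptors and signalling genes 6 of 14 were lower and 1 higher in mature barcodes of cKO_PD (median -0.37). Ifnar2 had 203 CPM in cKO_PD against 244 CPM in cHet_PD, an interval of the ratio of 0.545 to 1.23, while Ifnar1 had 45.7 CPM against 120 CPM and Irf9 52.3 CPM against 198 CPM. H2-D1, a class I heavy chain, had 1980 CPM against 1966 CPM, and Il1b 5273 CPM against 5031 CPM. Mature barcodes of cKO_PD still held more granule transcript: Ngp had 2842 CPM against 151 CPM, Mmp8 3646 CPM against 566 CPM and Retnlg 18824 CPM against 3651 CPM. Secondary granule genes were higher in 5 of 7 and lower in 0 (median 1.94), so the mature barcodes of the 2 libraries also differed in granule transcript. Whether this was a difference of stage was not tested, nor was its part in the interferon values.

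The difference was also seen below the threshold. Mature other neutrophils had a panel level without the Ifitm genes of 1780 CPM in cKO_PD against 3508 CPM in cHet_PD, 1.97-fold lower (1.71 to 2.28). Mature members with Slfn4 alone had 1991 CPM over 11 barcodes of cKO_PD against 5285 CPM over 134 of cHet_PD, and mature members with Rsad2 or Ifit1 4988 CPM over 5 barcodes against 13127 CPM over 165. Immature members of cKO_PD had 1319 CPM against 969 CPM in its immature other neutrophils (ratio 1.36, 1.15 to 1.61). In each mature group drawn by rule gene the cHet_PD barcodes held more of the panel. These groups were not equal in rule UMIs: among mature members with Rsad2 or Ifit1, Ifit1 had 0 UMIs in cKO_PD and 332 in cHet_PD. The barcode with 173 UMIs of Rgs5, a pericyte gene, was among the 5 of cKO_PD.

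**Figure D4:**
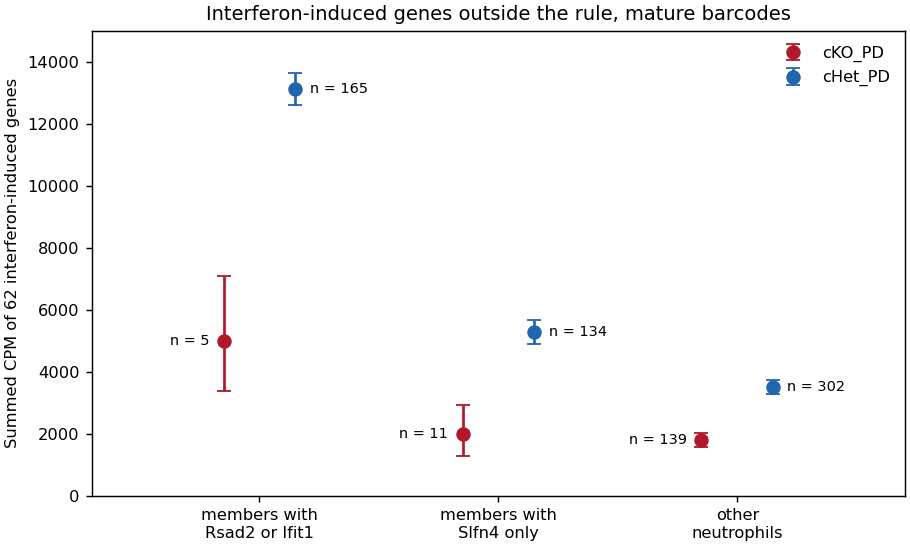
Summed CPM of 62 interferon-induced genes outside the rule, without the Ifitm genes, in mature barcodes of cKO_PD (red) and cHet_PD (blue), by the rule genes they held, with exact 95% intervals and the number of barcodes. In each of the 3 groups cKO_PD lies below cHet_PD: 4988 against 13127, 1991 against 5285 and 1780 against 3508. The groups are not equal in rule UMIs between the libraries.

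**Figure D5:**
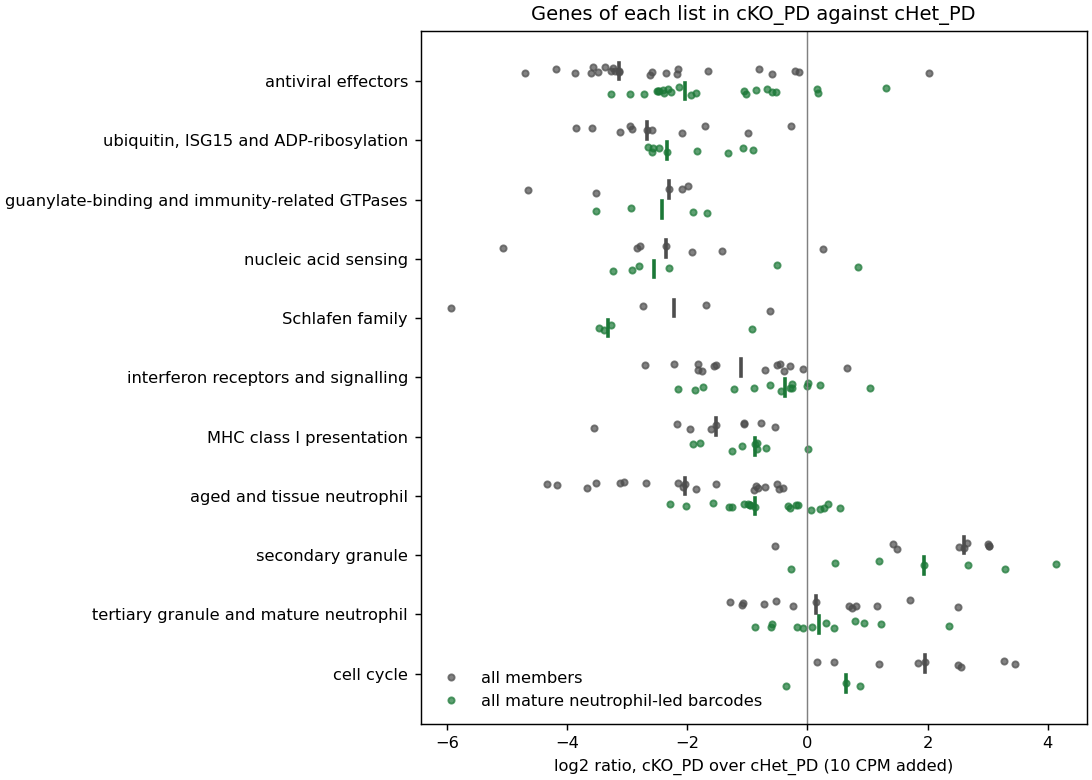
Log2 ratio of each measured gene, cKO_PD over cHet_PD (10 CPM added), by list, in all members (grey) and in all mature neutrophil-led barcodes (green), with ticks at the medians. The antiviral effectors have medians of -3.13 and -2.04, and the secondary granule genes of 2.61 and 1.94. Part of the antiviral effectors passed the filter only through cHet_PD.

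The program was not particular to neutrophils. The panel of 66 genes stood at 6600 CPM in endothelial-led barcodes of cKO_PD, 12620.5 CPM in cHet_PD, 5325 CPM in cKO_control and 5156 CPM in cHet_control, so endothelial cells, too, held more of it in cHet_PD than in cKO_PD. Mononuclear phagocyte-led barcodes had 2119 CPM in cKO_PD, 5442 CPM in cHet_PD, 3257 CPM in cKO_control and 1467 CPM in cHet_control. Slfn4 stood at 130 CPM in endothelial-led and 48.4 CPM in mononuclear-led barcodes of cHet_PD. Other neutrophils of cHet_PD, in which the rule limits Slfn4, had 713 CPM. Interferon-rule neutrophils had 7438 CPM, but Slfn4 helped to draw them. In dendritic-led barcodes the panel stood at 4591 CPM in cKO_PD and 4809 CPM in cHet_PD, and Rsad2 at 1435 CPM in cKO_PD (in 11.8% of 34 barcodes) against 285 CPM in cHet_PD (in 22.3% of 121 barcodes), so the libraries did not differ in 1 direction in every class.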

How the data were processed

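Single-cell RNA libraries were made from enzyme-digested, viability-stained gingiva with a BD Rhapsody kit, per the labels' protocols, although another label names 10x Genomics. The deposited values are whole-number counts of UMIs per gene and barcode, which the authors made with fastp and STARsolo 2.7.10a on mm10, per the submitters' processing notes. All 31253 gene identifiers were used, and barcodes with 200 genes and at most 20% mitochondrial UMIs were kept. Counts were summed per library and group and scaled to CPM. Log2 ratios had 10 CPM added. A gene was considered from 20 UMIs and 50 CPM on either side. It was called from 2-fold where the exact conditional 95% interval of its ratio left out 1, and list members were counted from 1.5-fold. With 1 library per group there is no test, and Poisson, Clopper-Pearson and ratio intervals cover counting error only. A fold against 0 UMIs was taken from 3 counts over the group.

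The members and the 21 gene lists were chosen with earlier results of these data known. Comparisons within a stage or by rule gene, and their leading genes, were added after the values were seen. Genes were named where they belong to the rule or markers, were called the same way in both PD libraries and seen in 10% of barcodes (12 each way), were among the 8 largest called between cKO_PD and cHet_PD, or were the 3 highest or the most changed of a list. Mitochondrial, ribosomal, hemoglobin, immunoglobulin, T cell receptor, sex-linked and predicted genes were not named by size. The 12 largest genes of a single comparison were added. No doublet caller was run, and barcodes with markers of other cells were left out as an alternative. Other alternatives changed the member rule, depth, filters, added CPM and scaling. Listed genes Mb21d1, Mnda, Mx1, Mx2, Slfn10-ps, Cxcl11, Azu1 and Clec7a were not analysed here. The count comparison was tested on simulated data. Python 3.11.15, numpy 2.4.6, scipy 1.17.1, pandas 2.3.3, matplotlib 3.10.9, R 4.3.3 and edgeR 4.0.16 (for TMM factors) were used. The values of 1 gene are not reported here.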

Additional observations from a re-analysis of the deposited data

Results flagged for a closer look

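Rsad2 was also seen in barcodes outside the neutrophil terms. In cHet_PD it was above its level in both control libraries in endothelial, mononuclear phagocyte, fibroblast and epithelial-led barcodes. Endothelial-led barcodes had 300 CPM in cKO_PD (20.6% of barcodes) and 1232 CPM in cHet_PD (51.5%), against 74.2 CPM in cKO_control and 64.0 CPM in cHet_control. Mononuclear phagocyte-led barcodes had 24.3 CPM in cKO_PD and 421 CPM in cHet_PD, against 16.0 CPM in cKO_control and 22.7 CPM in cHet_control. There the cKO_PD level was close to that of cHet_control. Fibroblast-led barcodes had 13.5 CPM in cKO_PD and 93.8 CPM in cHet_PD, against 4.70 CPM in cKO_control and 1.76 CPM in cHet_control. Epithelial-led barcodes had 7.95 CPM in cKO_PD and 32.6 CPM in cHet_PD, against 1.53 CPM in cKO_control and 0.646 CPM in cHet_control. Other classes had a higher summed level in cKO_PD, over few barcodes. Dendritic-led barcodes had 1435 CPM in cKO_PD and 285 CPM in cHet_PD. The share of them with Rsad2 was lower in cKO_PD, at 11.8% of 34 against 22.3% of 121. T or NK-led barcodes had 56.7 CPM in cKO_PD (5.26% of 57 barcodes) and 7.19 CPM in cHet_PD (1.45% of 138). The control barcodes of these classes were deeper than the PD ones.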

How the results depend on the processing

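No paired analysis was possible because a group holds 1 library and no replicate number links them. The member share was lower in cKO_PD than in cHet_PD in each of the 11 settings with a share. It was 12.2% and 37.3% over all barcodes of the rule as written, 25.2% and 78.6% with the lowest UMI total of the controls as a common floor, 29.1% and 61.5% from 2 UMIs, 5.77% and 36.3% from 5 UMIs, 2.47% and 29.0% with 1 UMI of Rsad2 or Ifit1 alone, and 10.7% and 44.9% without barcodes holding other cells' markers. In cKO_PD it was 11.0% thinned to 1000 UMIs and 10.3% in mature barcodes. The ratio of shares was 0.216 thinned, 0.207 in mature barcodes, 0.159 from 5 UMIs and 0.0852 with Rsad2 or Ifit1 alone. With the common floor the shares were 52 of 206 barcodes in cKO_PD and 44 of 56 in cHet_PD. In cHet_PD 564 of 620 neutrophil-led barcodes lay under the floor, so its share there rests on few barcodes.

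Counts of called genes depended on the setting. Higher calls of members against others in cKO_PD were 191 with no low-count filter, 45 with 1 CPM added, 81 for the rule as written, 49 with the floor, 84 from 5 UMIs, 181 with Rsad2 or Ifit1 alone and 59 with no Csf3r or Cxcr2 condition. Lower calls were 139 with no filter, 229 for the rule as written, 32 thinned, 173 with the floor, 25 in mature barcodes, 48 from 2 UMIs, 39 with Rsad2 or Ifit1 alone and 12 without other cells' markers. In cHet_PD higher calls were 222 with no filter, 794 for the rule as written, 67 thinned, 78 with the floor and 43 without other cells' markers, and lower calls 164 with no filter, 60 with 1 CPM added, 788 for the rule as written, 53 with the floor, 73 from 5 UMIs and 134 with Rsad2 or Ifit1 alone. Between cKO_PD and cHet_PD higher calls were 169 by TMM, 828 with no filter, 78 thinned, 154 with the floor, 109 in mature barcodes, 184 from 5 UMIs, 94 with Rsad2 or Ifit1 alone and 46 without other cells' markers. Lower calls were 245 thinned, 187 with the floor, 112 in mature barcodes, 160 with Rsad2 or Ifit1 alone and 112 without other cells' markers.

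The log2 ratio of the 66-gene panel over all neutrophils, cKO_PD over cHet_PD, was -1.18 as reported, -1.11 with S100a8 and S100a9 left out of the totals, -0.66 for the rule as written, -1.34 with no Csf3r or Cxcr2 condition and -1.12 without other cells' markers. That of Rsad2 and Ifit1 was -7.05 as reported, -4.57 for the rule as written, -4.92 in mature barcodes and -5.75 with no Csf3r or Cxcr2 condition. Lta4h turned to -0.38 in mature barcodes and Top2a to -2.24 without other cells' markers, and the median of the secondary granule genes in members of cHet_PD against others turned to -1.23 with Rsad2 or Ifit1 alone. The cause was not tested. Of the values of named genes 418 kept direction and call, 45 fell short of the call and 2 turned; of list medians 658 stayed, 84 moved and 1 turned. For 17 combinations no value could be had, such as controls without other cells' markers. The settings that use Rsad2 or Ifit1 alone, no Csf3r or Cxcr2 condition, or no other cells' markers were chosen after seeing the data. The number of barcodes limits values of the 6 and 20 members of the controls and of the 16 mature members of cKO_PD, and a total of 18773 UMIs also limits single genes of those mature members.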

Other observations

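Barcodes that met the rule but were led by epithelial genes held more of the 66 interferon-induced genes than epithelial-led barcodes with neutrophil transcripts below the interferon threshold. They stood at 2496 CPM (5 barcodes) against 1382 CPM (164 barcodes) in cKO_PD, and at 8570 CPM (51 barcodes) against 1254 CPM (344 barcodes) in cHet_PD. The rule split these groups on genes of the same program, with Ifit1 at 753 CPM against 4.02 CPM in cHet_PD. The difference is thus a description of the rule, and the cKO_PD value rests on 5 barcodes.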
